A study of Mus musculus with 6 samples.

Results

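The genes described here are 36 components and targets of 2 signalling routes, the YAP/TAZ arm of the Hippo pathway and the TGF-beta pathway, read in 6 mouse pancreatic ductal adenocarcinoma (PDAC) cell lines. They were taken by symbol from a named list, made with earlier results of these data known. All 36 were found among the 56953 Ensembl genes of the count table. The lines, KPC142, KPC180, KPC469, KPC490, KPC630 and KPC850, come from KPC mice, a name in wide use for mouse models of pancreatic cancer with pancreas-directed tumour mutations; the labels state no allele, treatment, passage or age. Each line was sequenced once from polyadenylated RNA, so no value has a replicate, and intervals given below cover counting error only. The study's stated interest is in lines whose tumours take in few or many CD8+ T cells, but no label assigns a line to either kind and every line stands on its own here.

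YAP and its paralogue TAZ (gene Wwtr1) are coactivators that bind DNA through the TEAD factors, and the Hippo kinases LATS1 and LATS2 keep them out of the nucleus when cells are crowded or under little tension. TGF-beta ligands act through the receptors TGFBR2 and TGFBR1, which phosphorylate SMAD2 and SMAD3, and the pathway switches on its own inhibitors, among them Smad7 and Skil. In pancreatic tumours TGF-beta can arrest epithelial cells and can also drive their change to a mesenchymal state. Both routes are commonly read through the RNA of their targets, because their components are controlled largely at the protein level.

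Library totals ran from 16471558 to 18701274 counts, and 1 count was worth 0.0532 to 0.0610 CPM (counts scaled to a common library total, with TMM factors). Mitochondrially encoded genes took 1.61% to 2.23% of counts. All 9 ductal epithelial markers examined reached 1 CPM in at least 1 line, with the keratin gene Krt8 at 843 to 4183 CPM, and Epcam at 0.244 CPM in KPC180 to 10.5 in KPC630. Summed markers of leukocytes reached 4.20 CPM at most, those of fibroblasts 7.30, of endothelium 2.66, of acinar cells 21.0 (Cela1) and of smooth muscle and pericytes 23.0 (Acta2 in KPC630). Endocrine and erythroid markers stayed at 0.213 CPM or below in sum. Across genes KPC469 resembled the rest least, its Spearman correlations with them averaging 0.880, against 0.899 to 0.917 for the other lines, and Krt8 was lowest there. The part of these differences in the results below was not tested.

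Of the 36 genes, 31 averaged at least 5 CPM over the lines and could be set beside the 10392 genes that did so. The highest line exceeded the lowest by at least 4-fold for 7 of the 31 (22.6%), against 13.9% of all genes at that level: Tead2, Amotl1, Ankrd1, Fjx1, F3, Tgfb3 and Ldlrad4. The median range was 2.59-fold for the 31 genes and 1.90-fold for all genes. The genes were chosen with earlier results of these data known, so neither difference can be read as a property of the pathways. Fjx1 passed the level filter only through its higher lines, so its place among the 7 is in part set by that filter. The remaining 5 genes, Nuak2, Dlc1, Tgfb2, Tgfbi and Bambi, were too low for these counts. Their ratios also passed 4-fold, which makes 12 of the 36, against 25.9% of all genes with at least 1 count. These 5 genes are given with their counts below.

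**Figure D1:**
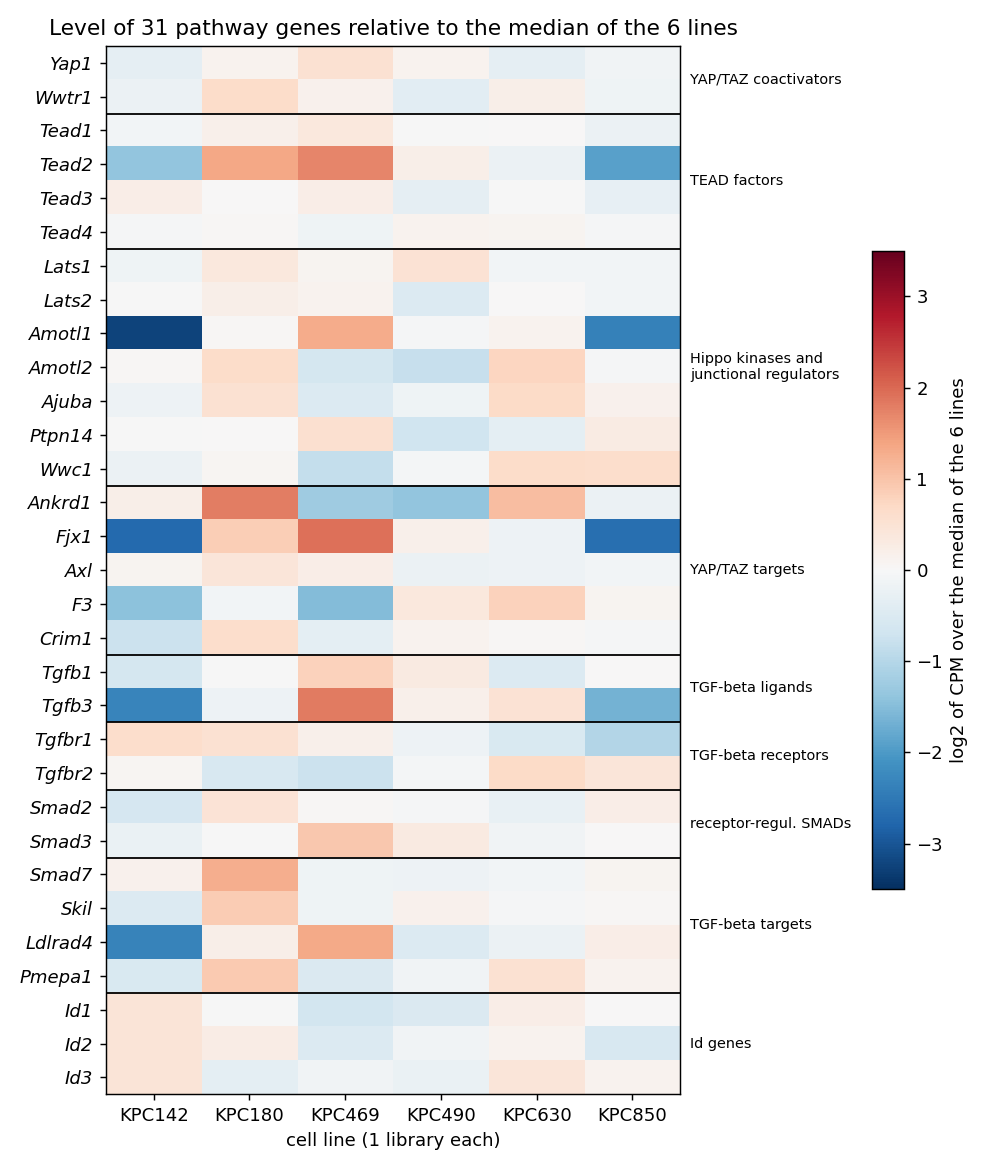
Heat map of the 31 pathway genes with a mean of at least 5 CPM (rows, grouped by role) in the 6 lines (columns); colour is the log2 of the CPM over the median of the 6 lines. Tead2, Amotl1, Fjx1 and Tgfb3 are lowest in KPC142 and KPC850 and highest in KPC469, while Ankrd1, Smad7, Skil and Pmepa1 are highest in KPC180.

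The coactivators themselves varied about as much as a typical gene, with a median range of 1.92-fold against 1.90-fold for all genes. Yap1 stood at 221 CPM in KPC469, 167 in KPC490, 166 in KPC180, 139.8 in KPC850, 124 in KPC142 and 122 in KPC630. Its range, KPC469 over KPC630, was 1.82-fold with a counting interval of 1.73 to 1.92. Wwtr1 had 191 CPM in KPC180, 141 in KPC630, 134 in KPC469, 110.1 in KPC850, 105 in KPC142 and 93.8 in KPC490, a range of 2.04-fold (1.92 to 2.16) between KPC180 and KPC490. The lines therefore ranked differently for the paralogues: KPC469 was highest for Yap1 and KPC180 for Wwtr1. Per kilobase of exon Wwtr1 exceeded Yap1 in all 6 lines, with medians of 25.6 and 16.5 CPM per kilobase, but with the longest transcript as the length the medians were 26.0 and 29.0, so their order is not settled.

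Among the TEAD factors, Tead2 varied and the other 3 hardly did. Tead2 had 156 CPM in KPC469, 122 in KPC180, 55.1 in KPC490, 41.6 in KPC630, 18.5 in KPC142 and 12.8 in KPC850. KPC469 exceeded KPC850 by 12.2-fold (10.7 to 14.1), and KPC180 and KPC469 were each at least 2-fold above the other 4 lines. Tead1 had 190.2 CPM in KPC469, 169 in KPC180, 150.4 in KPC630, 147 in KPC490, 138 in KPC142 and 129.96 in KPC850 (1.46-fold). Tead4 had 41.1 CPM in KPC490, 40.3 in KPC630, 38.3 in KPC180, 36.8 in KPC142, 36.3 in KPC850 and 33.6 in KPC469 (1.22-fold). No line stood apart for either gene. Tead3 was scarcer, with 13.1 CPM in KPC142, 13.0 in KPC469, 11.2 in KPC180, 11.0 in KPC630, 9.04 in KPC850 and 8.93 in KPC490 (1.47-fold, 1.19 to 1.82). Per length Tead2 was the highest TEAD gene in KPC469 (32.6 CPM per kilobase, against 14.0 for Tead1 and 9.34 for Tead4) and in KPC180 (25.5, against 12.4 and 10.6). In KPC142 and KPC850 it stood at 3.87 and 2.67 CPM per kilobase, below Tead1 (10.2 and 9.58) and Tead4 (10.2 and 10.1). Tead3 was the lowest TEAD gene per length in every line, at 1.33 to 1.95 CPM per kilobase, with either measure of gene length.

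Of the kinases, scaffolds and junctional regulators, the angiomotin-like gene Amotl1 stood apart. Angiomotins bind YAP at junctions and actin fibres. Amotl1 had 157 CPM in KPC469, 68.7 in KPC630, 65.0 in KPC180, 62.3 in KPC490, 12.3 in KPC850 and 6.74 in KPC142, a 23.4-fold range (19.3 to 28.5) from KPC469 to KPC142. KPC142 and KPC850 were the low lines here as for Tead2, and 3 lines lay close together in the middle. Its paralogue Amotl2, which is itself induced by YAP, followed another order, with 144 CPM in KPC630, 132 in KPC180, 86.7 in KPC142, 83.2 in KPC850, 55.6 in KPC469 and 48.6 in KPC490 (2.96-fold, 2.73 to 3.20). The kinase genes Lats1 and Lats2 kept within 1.57-fold and 1.60-fold. Ajuba, a LIM protein that restrains LATS, ran from 190.1 CPM in KPC630 to 86.6 in KPC469 (2.20-fold), and Wwc1 (KIBRA), an upstream activator of the kinases, from 334 to 120.2 CPM in the same lines (2.78-fold). Ptpn14, which holds YAP in the cytoplasm, peaked at 109 CPM in KPC469 and was lowest at 45.6 in KPC490 (2.39-fold).

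The YAP/TAZ targets did not move as a block. Ankrd1, a muscle ankyrin repeat protein gene that is among the most used YAP readouts, had 379.9 CPM in KPC180, 233 in KPC630, 127 in KPC142, 96.1 in KPC850, 47.0 in KPC469 and 42.8 in KPC490. KPC180 exceeded KPC490 by 8.88-fold (8.23 to 9.60), and KPC180 and KPC630 were separated from the other 4 lines. Fjx1, related to the four-jointed gene of Drosophila, had 15.1 CPM in KPC469, 7.20 in KPC180, 4.55 in KPC490, 3.51 in KPC630, 0.642 in KPC850 (11 counts) and 0.601 in KPC142 (10 counts), a 25.1-fold range (13.4 to 52.9). Its order over the lines was that of Tead2 apart from the lowest pair, and unlike that of Ankrd1.

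F3, the tissue factor gene that starts coagulation, had 165 CPM in KPC630, 121 in KPC490, 99.98 in KPC850, 88.2 in KPC180, 34.9 in KPC142 and 32.5 in KPC469, a 5.07-fold range (4.64 to 5.54). KPC142 and KPC469 formed its low pair. Crim1, a transmembrane protein that binds BMP ligands, was highest at 206 CPM in KPC180 and lowest at 79.3 in KPC142 (2.59-fold). Axl, a receptor tyrosine kinase, was high everywhere, from 850.3 CPM in KPC180 to 549 in KPC490 (1.55-fold). Nuak2, a kinase gene, had 7.17 CPM in KPC850, 6.91 in KPC630, 4.51 in KPC142, 3.42 in KPC180, 2.71 in KPC490 and 1.63 in KPC469 (123, 130, 75, 56, 47 and 30 counts), a ratio of 4.39 (2.93 to 6.78). Dlc1, a GTPase-activating protein gene, had 16 counts in KPC469, 7 in KPC630, 4 in KPC490 and 0 in KPC142, KPC180 and KPC850, so it was near the detection limit throughout.

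**Figure D2:**
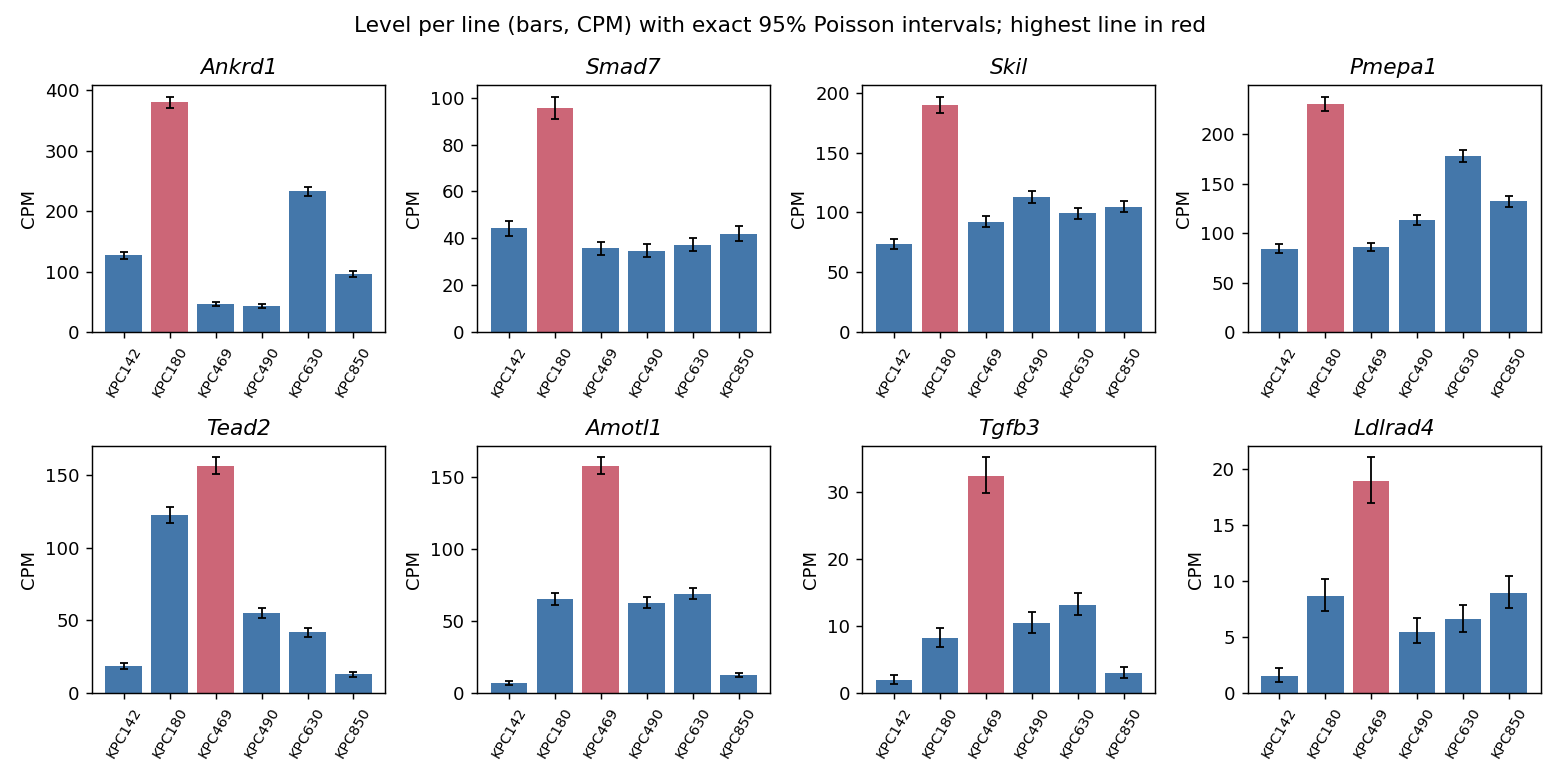
Bars show CPM in each of the 6 lines for 8 genes, with exact 95% Poisson intervals for counting error and the highest line in red. In the upper row Ankrd1, Smad7, Skil and Pmepa1 are highest in KPC180 (379.9, 95.5, 189.9 and 231 CPM), and in the lower row Tead2, Amotl1, Tgfb3 and Ldlrad4 are highest in KPC469 (156, 157, 32.4 and 19.0 CPM).

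Promoter windows from RefSeq (build GRCm38.p6, 250 bases before to 50 after a gene's start) were matched by symbol for 23 of the 36 genes, in 28 windows. They were searched on both strands for the core of the TEAD motif, CATTCC, which reads as GGAATG on the other strand, and for the short SMAD-binding element, CAGAC, which reads as GTCTG on the other strand. The TEAD letters were in 13 of the 28 windows (46.4%), some of which overlap, against 14.7% of all 32851 windows, and the SMAD letters in 12 (42.9%), against 49.6%. The genome build of the table is GRCm39, so these windows serve to show sequence only. A match is a description of letters and not a bound site, and this comparison was not tested. Chosen after their values were seen, the windows of 4 genes whose level was highest in KPC180 or KPC630, and which hold TEAD letters, are shown first, followed by 2 that were highest in KPC469 and hold none. The letters did not follow the leading line in general: Yap1 and Ptpn14, highest in KPC469, each have a TEAD match, and Wwc1 and Tgfbr2, highest in KPC630, have none. Motif letters are in capitals, and in Ankrd1 a SMAD and a TEAD match share a base.
Ankrd1 (chr19:36119795-36120094, minus strand): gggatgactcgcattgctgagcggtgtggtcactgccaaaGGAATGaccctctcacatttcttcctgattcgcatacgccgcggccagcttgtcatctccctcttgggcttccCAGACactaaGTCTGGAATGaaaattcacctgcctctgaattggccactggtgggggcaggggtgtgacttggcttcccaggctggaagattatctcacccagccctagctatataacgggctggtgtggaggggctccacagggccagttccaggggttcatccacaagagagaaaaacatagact
Amotl2 (chr9:102717554-102717853, plus strand): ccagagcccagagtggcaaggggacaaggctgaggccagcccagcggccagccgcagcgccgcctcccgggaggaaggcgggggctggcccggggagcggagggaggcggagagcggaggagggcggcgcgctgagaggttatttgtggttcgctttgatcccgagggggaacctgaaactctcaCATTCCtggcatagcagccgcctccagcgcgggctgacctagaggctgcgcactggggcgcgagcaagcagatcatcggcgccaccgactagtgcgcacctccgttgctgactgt
Ajuba (chr14:54577612-54577911, minus strand): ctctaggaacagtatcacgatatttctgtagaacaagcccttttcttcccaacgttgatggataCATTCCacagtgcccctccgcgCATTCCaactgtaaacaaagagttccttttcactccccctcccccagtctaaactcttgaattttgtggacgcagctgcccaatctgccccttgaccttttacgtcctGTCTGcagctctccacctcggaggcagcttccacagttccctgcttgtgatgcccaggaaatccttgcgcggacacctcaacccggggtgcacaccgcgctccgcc
Crim1 (chr17:78199998-78200297, plus strand): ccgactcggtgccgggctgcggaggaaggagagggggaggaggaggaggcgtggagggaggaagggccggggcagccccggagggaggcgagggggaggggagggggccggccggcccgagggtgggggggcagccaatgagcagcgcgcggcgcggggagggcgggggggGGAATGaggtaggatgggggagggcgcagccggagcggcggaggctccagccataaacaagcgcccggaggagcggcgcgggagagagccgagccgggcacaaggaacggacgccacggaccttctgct
Tead2 (chr7:45215542-45215841, plus strand): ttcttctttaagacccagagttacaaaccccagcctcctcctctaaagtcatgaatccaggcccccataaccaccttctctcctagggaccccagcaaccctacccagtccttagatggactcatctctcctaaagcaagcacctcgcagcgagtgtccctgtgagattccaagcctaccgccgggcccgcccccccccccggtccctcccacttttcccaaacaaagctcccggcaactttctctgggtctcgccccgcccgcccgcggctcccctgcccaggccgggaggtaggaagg
Amotl1 (chr9:14614951-14615250, minus strand): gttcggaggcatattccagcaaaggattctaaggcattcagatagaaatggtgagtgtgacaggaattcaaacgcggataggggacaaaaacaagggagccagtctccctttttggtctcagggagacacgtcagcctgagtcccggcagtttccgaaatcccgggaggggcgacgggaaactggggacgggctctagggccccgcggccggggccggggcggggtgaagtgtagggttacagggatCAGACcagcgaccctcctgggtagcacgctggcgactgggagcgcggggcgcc
Counted from the start, the TEAD letters begin at -210 and -123 in Ankrd1, at -186 and -164 in Ajuba, at -65 in Amotl2 and at -79 in Crim1. The Tead2 window holds neither motif and the Amotl1 window 1 SMAD match, at -3. The window of F3 held neither motif, although F3 also varied more than 4-fold.

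Of the TGF-beta ligand genes, Tgfb1 and Tgfb3 were highest in KPC469 and the scarcer Tgfb2 in KPC630. Tgfb1 had 72.7 CPM in KPC469, 51.6 in KPC490, 41.7 in KPC850, 41.2 in KPC180, 29.9 in KPC630 and 27.1 in KPC142, a range of 2.69-fold (2.413 to 2.997) between KPC469 and KPC142. Tgfb3 spread further, with 32.4 CPM in KPC469, 13.1 in KPC630, 10.4 in KPC490, 8.17 in KPC180, 2.92 in KPC850 and 1.86 in KPC142, or 17.4-fold (12.1 to 25.8) between the same lines. KPC142 and KPC850, the low pair for Tead2 and Amotl1, were also the lowest for Tgfb3, and KPC469 stood apart at the top. Tgfb2 was scarce: 75 counts in KPC630 (3.99 CPM), 25 in KPC469, 20 in KPC180, 16 in KPC142, 7 in KPC850 and 1 in KPC490, a ratio of 69.2 whose interval ran from 12.04 to 2769. Per kilobase of exon the order was Tgfb1, Tgfb3, Tgfb2 in all 6 lines with either measure of length, and in KPC469 Tgfb3 reached 9.58 and Tgfb1 14.4 CPM per kilobase.

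**Figure D3:**
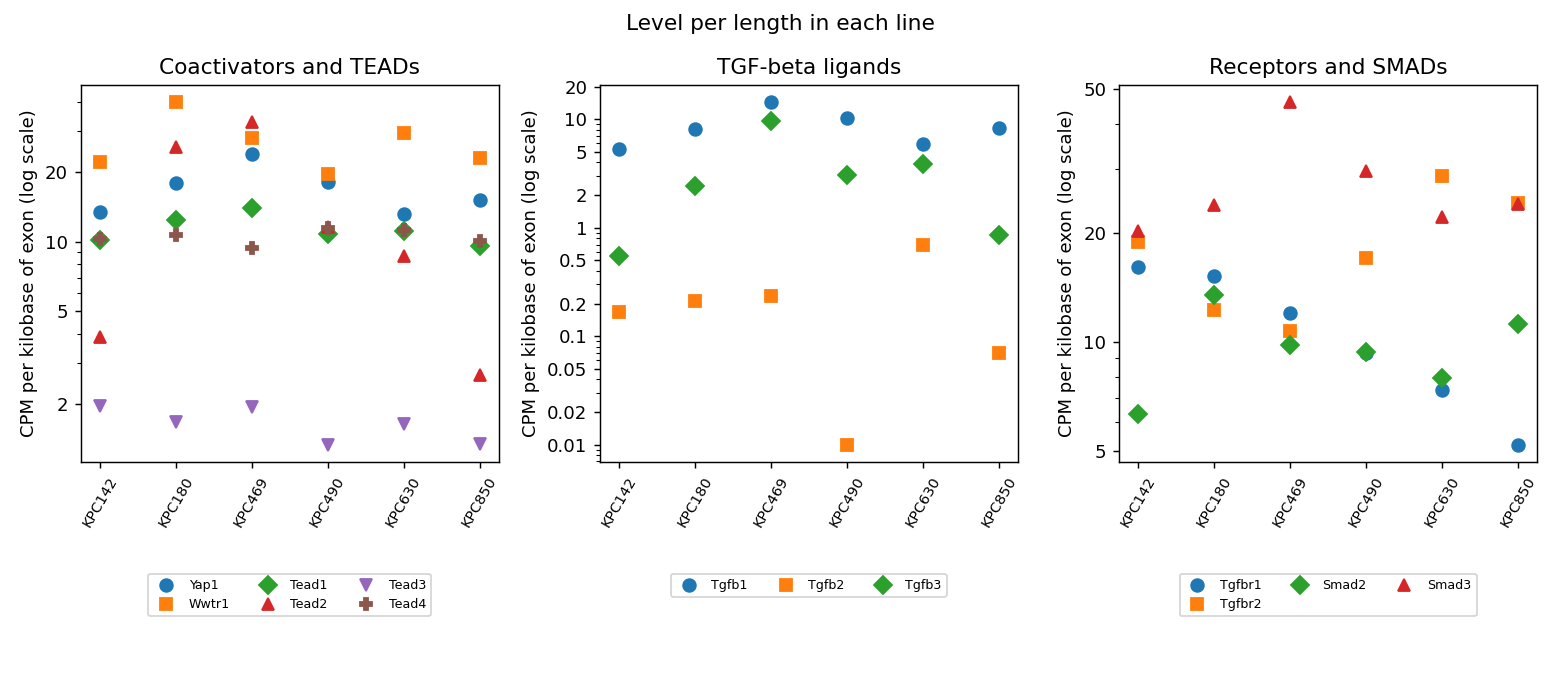
Level per length (CPM per kilobase of exon, log scale) of the coactivator and TEAD genes, the ligand genes, and the receptor and SMAD genes in each of the 6 lines, 1 point per library. Tead2 crosses from the top TEAD gene in KPC469 (32.6) to 2.67 in KPC850, and Tgfb3 runs between 9.58 in KPC469 and 0.551 in KPC142.

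The receptor genes ranked the lines in different orders. Tgfbr1, the type I receptor, was highest in KPC142 at 105 CPM, next in KPC180 at 99.2 and KPC469 at 78.6, then in KPC490 at 60.8 and KPC630 at 48.1, and lowest in KPC850 at 33.9, a 3.11-fold range (2.83 to 3.42). Tgfbr2, the type II receptor that binds the ligand first, had 235 CPM in KPC630, 199 in KPC850, 154 in KPC142, 139.8 in KPC490, 100.4 in KPC180 and 87.5 in KPC469, a 2.68-fold range (2.53 to 2.84). Per length Tgfbr1 exceeded Tgfbr2 in KPC180 (15.2 and 12.3 CPM per kilobase) and KPC469 (12.03 and 10.7), and Tgfbr2 exceeded Tgfbr1 in the other 4 lines, with the largest ratio in KPC850 (24.3 and 5.196). Tgfbr1 lies on chromosome 4, whose 635 genes had a median of 0.52 log2 units in KPC142, relative to each gene's median over the lines. With chromosome medians subtracted, KPC180 in place of KPC142 was highest for Tgfbr1, and KPC850 stayed lowest.

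The SMAD genes varied by close to 2-fold. Smad3 had 255 CPM in KPC469, 165 in KPC490, 133 in KPC850, 132 in KPC180, 123 in KPC630 and 112 in KPC142 (2.27-fold, 2.15 to 2.40). Its order over the lines was that of Tgfb1. KPC850 and KPC180 were nearly equal for both genes (Tgfb1 41.7 and 41.2 CPM), so their place in that order is not settled. KPC469 stood alone at the top. Smad2 had 118 CPM in KPC180, 98.2 in KPC850, 85.9 in KPC469, 82.2 in KPC490 and 70.01 in KPC630, with KPC142 lowest at 55.4 (2.13-fold, 1.97 to 2.31), an even spread. Per length Smad3 exceeded Smad2 in every line, with medians of 24.0 and 9.57 CPM per kilobase. Smad2 lies on chromosome 18, whose 264 genes had medians of 0.34 in KPC180 and -0.25 in KPC142 on the log2 scale. With these subtracted its log2 range was 0.50 in place of 1.09.

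Smad7, Skil and Pmepa1, feedback targets of TGF-beta, were highest in KPC180, not in KPC469, the line with the most Tgfb1 and Tgfb3 RNA. Smad7, which blocks the receptor, had 95.5 CPM in KPC180, 44.2 in KPC142, 41.9 in KPC850, 37.3 in KPC630, 35.7 in KPC469 and 34.6 in KPC490 (2.76-fold, 2.51 to 3.04). The other 5 lines lay within 34.6 and 44.2 CPM, so KPC180 stood alone. Skil (SnoN), a SMAD corepressor, had 189.9 CPM in KPC180, 113 in KPC490, 105 in KPC850, 99.1 in KPC630, 92.1 in KPC469 and 73.3 in KPC142 (2.59-fold, 2.42 to 2.77). Pmepa1, which sequesters SMADs, had 231 CPM in KPC180, 178 in KPC630, 132 in KPC850, 113 in KPC490, 86.0 in KPC469 and 84.3 in KPC142 (2.74-fold, 2.57 to 2.91). KPC180 was again on top for both, and KPC630 was close behind for Pmepa1. Against the median of the other lines KPC180 was 1.36 log2 units higher for Smad7, 0.94 for Skil and 1.03 for Pmepa1. With chromosome medians subtracted these were 0.99, 0.85 and 0.80, so KPC180 was still the highest line for all 3 genes.

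The other TGF-beta targets did not share that order. Ldlrad4, an inhibitor of SMAD phosphorylation, had 19.0 CPM in KPC469, 8.92 in KPC850, 8.66 in KPC180, 6.59 in KPC630, 5.47 in KPC490 and 1.503 in KPC142, a 12.6-fold range (8.40 to 19.8) from KPC469 to KPC142. Of its exon length 52.1% overlaps Fam210a on the opposite strand, which stood at 76.7 to 138 CPM. The kit was stranded, but whether counting used strand is not given in the sources used here, so Ldlrad4 is uncertain; Fam210a was highest in KPC180 and not in KPC469. Tgfbi, an extracellular matrix protein gene, had 167 counts in KPC469 (9.10 CPM), 10 in KPC630, 4 in KPC142, 3 in KPC490 and 0 in KPC180 and KPC850. KPC469 was at least 49.7-fold above KPC180, taking 3 counts as the floor of that library. Bambi, a decoy receptor gene, had 2 to 11 counts in every library and no order can be read from it.

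The Id genes, whose products block basic helix-loop-helix factors and which BMP signals induce through SMAD1 and SMAD5, had their own order. Id1 had 319 CPM in KPC142, 275 in KPC630, 236 in KPC850, 230.1 in KPC180, 163 in KPC490 and 149 in KPC469 (2.14-fold, 2.04 to 2.24, KPC142 over KPC469). Id2 was highest in KPC142 (262 CPM) and lowest in KPC850 (129), and Id3 highest in KPC142 (135 CPM) and lowest in KPC180 (77.7), with ranges of 2.03-fold and 1.74-fold. KPC142 was thus highest for all 3 Id genes, while it was lowest for Tgfb1, Tgfb3, Smad2, Smad3, Skil, Ldlrad4 and Pmepa1. Some of these ranks were close. The counting intervals of Pmepa1 in KPC142 (79.9 to 88.8 CPM) and KPC469 (81.8 to 90.4 CPM) overlap, and Id3 had 131 CPM in KPC630. Id3 is on chromosome 4, and with that chromosome's median subtracted KPC630 was its highest line.

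By line, the genes fell as follows among the 31. KPC142 was the lowest line for 11 genes (21.6% of all genes were lowest there) and the highest for 5 (18.7%), and it lay 2-fold or more below the median of the other 5 lines for 6 genes (6.53%) and above it for 0 (4.33%). KPC180 was highest for 9 genes (16.5%) and lowest for 1 (16.1%), with 5 genes 2-fold above (3.68%) and 0 below (5.16%). KPC469 was highest for 10 genes (21.4%) and lowest for 6 (20.1%), with 5 genes 2-fold above (6.09%) and 2 below (7.03%). KPC490 was highest for 2 genes (14.6%) and lowest for 8 (12.5%), with 0 genes 2-fold above (3.43%) and 1 below (3.34%). KPC630 was highest for 5 (13.8%) and lowest for 1 (13.9%), with 1 above (3.70%) and 0 below (3.05%). KPC850 was highest for 0 genes (15.0%) and lowest for 4 (15.8%), with 0 above (4.43%) and 5 below (3.87%). The 5 genes above in KPC180 were Tead2, Ankrd1, Fjx1, Smad7 and Pmepa1, of which Tead2 and Ankrd1 were past 2-fold once chromosome medians were subtracted. Fjx1 and Smad7 then fell just short of 2-fold, at 0.997 and 0.987 log2 units, and Pmepa1 stood at 0.80.

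Pooled over both pathways, whether targets varied more than components depended on which genes and lines were included. The 12 target genes in the counts had a median range of 1.41 log2 units and the 19 component genes 1.18, and 4-fold was passed by 4 targets and 3 components. The difference in medians, 0.23, became -0.13 when KPC180 was left out and 0.02 when chromosome medians were subtracted, so its sign is not settled. Of 16 targets 12 reached the 5 CPM level, and of 20 components 19. With the rest included, 8 of 16 targets and 4 of 20 components passed 4-fold, against 25.9% of genes with at least 1 count. Their median ranges were then 1.80 and 1.22 log2 units, but the added genes averaged below 5 CPM. By pathway, the 5 YAP/TAZ targets had a median range of 5.07-fold and the 13 Hippo components 2.04-fold. The 5.07-fold is the range of F3, and the 5 targets ran from 1.55-fold (Axl) to 25.1-fold (Fjx1). Fjx1 passed the level filter only through its higher lines, and Amotl2, itself induced by YAP, was counted as a component. The 4 TGF-beta targets had a median of 2.75-fold, the 6 TGF-beta components 2.68-fold and the 3 Id genes 2.03-fold. Relative to each gene's median over the lines, the targets had a median of 0.52 log2 units in KPC180 and the components 0.13, with 9 of 12 targets and 15 of 19 components above 0. In KPC469 the targets stood at -0.24 and the components at 0.19, with 3 of 12 targets and 14 of 19 components above 0. These differences were not tested. For all 10392 genes the medians in these lines were 0.00 and 0.01.

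**Figure D4:**
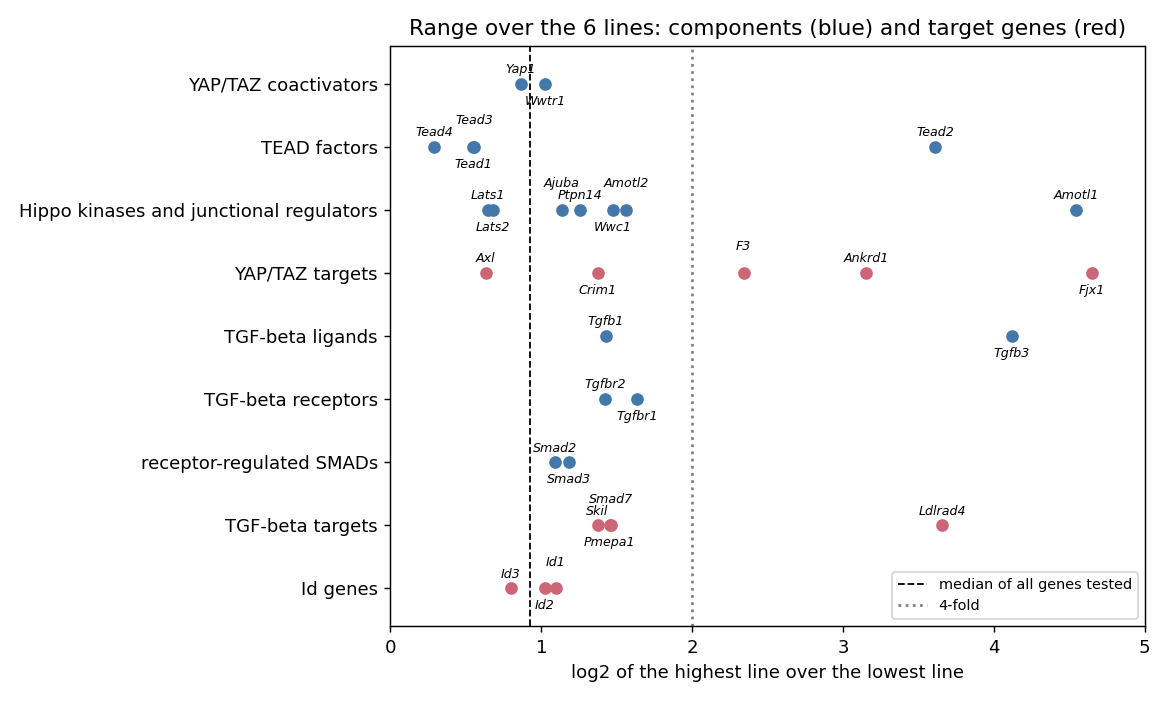
Each point is the log2 of the highest line over the lowest line for 1 gene with a mean of at least 5 CPM, by role; the dashed line is the median of all genes at that level (0.92) and the dotted line marks 4-fold. Tead4 has the smallest range (0.29), and Tead2, Amotl1, F3, Ankrd1, Fjx1, Tgfb3 and Ldlrad4 lie past 4-fold.

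Regulator RNA and target RNA were set side by side over the 6 lines, as a description of 6 points, 1 library each, with no test. Ankrd1 had a Pearson correlation of 0.74 with Wwtr1 and -0.49 with Yap1 on the log2 scale. These depended on single lines: without KPC180 they were 0.44 and -0.86, and without KPC469 they were 0.93 and -0.19. With the other YAP/TAZ targets Yap1 had correlations of 0.78 (Fjx1), 0.46 (Axl), -0.39 (F3) and 0.18 (Crim1), and Wwtr1 had 0.51, 0.72, 0.07 and 0.58 with the same genes. Tgfb1 had correlations of -0.18 with Smad7, 0.19 with Skil, 0.78 with Ldlrad4 and -0.25 with Pmepa1, and Tgfb3 had -0.19, 0.21, 0.75 and 0.08. For Yap1, Tgfb1 and Tgfb3 the sign of the relation thus differed from target to target. For Wwtr1 the values with all 5 YAP/TAZ targets were positive, though that with F3 was only 0.07. Across genes, the mean pairwise correlation was 0.13 among the 31 genes, 0.49 among 4 TGF-beta targets, 0.21 among 5 YAP/TAZ targets and 0.56 among 3 Id genes, against 0.00 for all genes. The means of these small sets rest on few pairs. Smad7 had Pearson correlations of 0.79 with Skil and 0.67 with Pmepa1, but Spearman correlations of only 0.09 and 0.31. Skil and Pmepa1 had 0.82 and 0.77.

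Of 465 pairs among the 31 genes, 12 had a correlation of 0.9 or more (2.58%, against 0.881% of all pairs of the 10392 genes) and 4 of -0.9 or less (0.860%, against 0.832%). Pairs that share a gene are not independent, and those named here were chosen after their values were seen. Amotl2 and Ankrd1 had a Pearson correlation of 0.97 and a Spearman correlation of 0.94 over the 6 lines, and Amotl1 and Tgfb3 had 0.98 and 0.94. Tead2 and Fjx1 had a Pearson correlation of 0.97, and Crim1 and Skil, a YAP/TAZ and a TGF-beta target, 0.95. Tgfb1 and Id1 ran in opposite directions, with a Pearson correlation of -0.97 and a Spearman correlation of -0.94. Leaving out any 1 line moved the Pearson correlation of the Amotl2 pair between 0.95 and 0.99 and of the Id1 pair between -0.99 and -0.95.

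**Figure D5:**
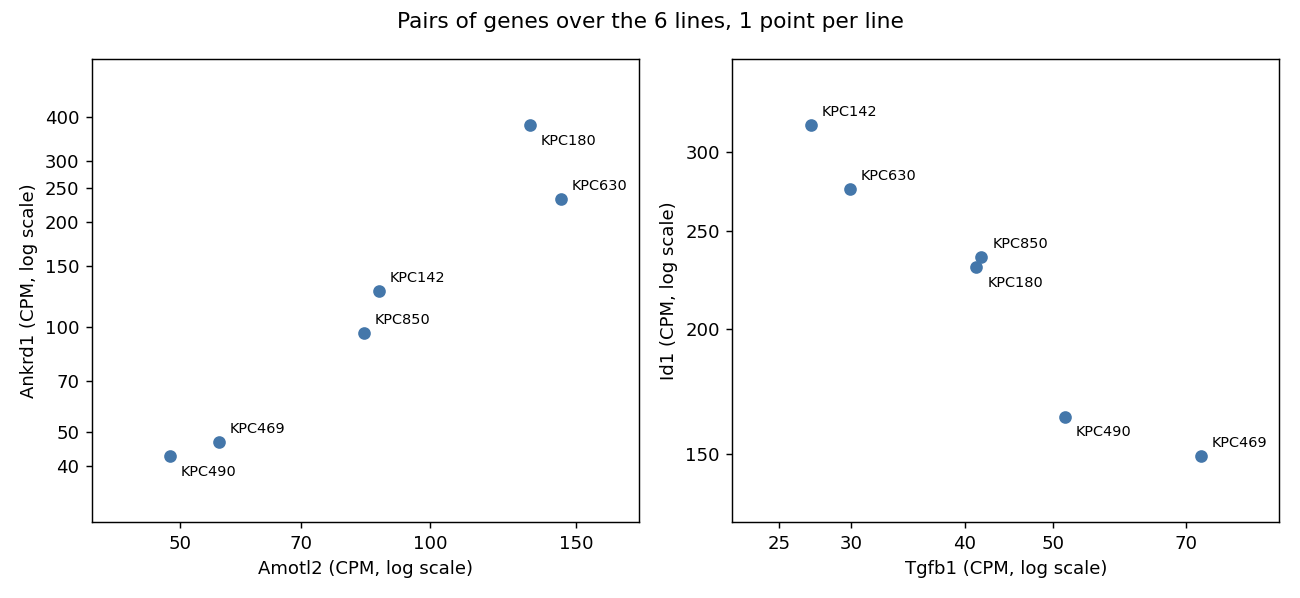
CPM of Amotl2 and Ankrd1 (left) and of Tgfb1 and Id1 (right) on log axes, 1 labelled point per line. Ankrd1 rises with Amotl2, with KPC180 and KPC630 at the top, and Id1 is highest in KPC142 (319 CPM), where Tgfb1 is lowest (27.1 CPM).

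Other genes of these routes were read from further lists, also chosen with earlier results of these data known. Among 20 other Hippo genes, 16 reached a mean of 5 CPM and 1 of these a 4-fold range (against 13.9% of all genes), Frmd6, a FERM-domain protein gene, at 88.8 CPM in KPC142 and 22.0 in KPC850 (4.03-fold, 3.60 to 4.52). Amot, the third angiomotin gene, had 8.24 CPM in KPC142 and 24.0 to 29.3 CPM elsewhere, so Amot and Amotl1 were both lowest in KPC142. Taok3, a kinase gene, ran from 75.0 CPM in KPC850 to 23.5 in KPC469.

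Among 36 other genes of the TGF-beta and BMP routes, 28 reached that level and 9 had a 4-fold range, against 13.9% of all genes. Grem1, a secreted BMP antagonist, had 778 CPM in KPC469, 8.87 in KPC490, 7.56 in KPC180, 2.65 in KPC142, 4 counts in KPC630 and 0 in KPC850. KPC469 was at least 4445-fold above KPC850, taking 3 counts as the floor of that library. Grem1 passed the level filter only through KPC469, so its place among the 9 is in part set by that filter. Bmp4 was also highest in KPC469 (87.3 CPM) and lowest in KPC180 (1.65), while Bmp2 was highest in KPC180 (31.6 CPM) and lowest in KPC142 (0.361). Fst, which encodes the activin-binding follistatin, ran from 27.9 CPM in KPC469 to 0.549 in KPC180. KPC469 had the most Grem1 and the least Id1 (149 CPM), and KPC490, with 8.87 CPM of Grem1, was next lowest for Id1 (163 CPM). Id2 was lowest in KPC850 (129 CPM, against 136 in KPC469). Id3 was lowest in KPC180 (77.7 CPM), with 83.7 CPM in KPC490 and 89.6 in KPC469. Whether Grem1 and the Id genes are related was not tested.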

How the data were processed

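RNA of 6 lines was sequenced with a stranded poly(A) kit, per the labels' protocols. The authors' tools were RSEM 1.3.3, STAR 2.7.10b and Trimmomatic 0.36 on GRCm39, per the submitters' processing notes. Values as deposited are expected counts per gene, and they were rounded to whole numbers here; 5.28% to 5.66% of values in a library had a fractional part. Library totals were scaled by TMM (edgeR 4.0.16, factors 0.981 to 1.01) to CPM. Each line is its own group with 1 library, so no test between lines was made. Ratios have exact conditional binomial 95% intervals. A line at 0 counts was set to 3 counts. Shares are over genes with a mean of at least 5 CPM. The code for ranges and line differences was checked for recovery of known changes in simulated counts, which gives no chance level for the counts reported.

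Symbols came from GENCODE vM21, which matched 52029 of 56953 identifiers, and so did exon lengths and chromosomes, although that annotation is on GRCm38. Roles came with hand-written lists. The members and lists were chosen with earlier results of these data known. All 36 members are reported, with up to 4 genes of each further list by largest range; some genes that this rule takes are not reported here. Alternatives were DESeq2 1.42.0 size factors, library totals, 3 other filters, unrounded values, chromosome medians and each line left out.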

Additional observations from a re-analysis of the deposited data

How the results depend on the processing

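The 7 genes counted with a 4-fold range became 12 of 36 over every gene with at least 1 count (25.9% of all such genes passed), 23 at a 2-fold threshold (44.5%), and 6 to 7 when each line was left out. Calls of a gene as 2-fold from the other lines were summed over lines and directions, so 1 gene can be called in several lines. Over every gene with at least 1 count these calls numbered 38 in place of 25. Among them were 1 above in KPC142, 8 above in KPC469, 3 below in KPC490, 5 above in KPC630 and 1 above in KPC850. The target minus component difference was 0.58 in that setting. With filterByExpr, 2 genes were above in KPC630 and 1 in KPC850. Minus chromosome medians, 2 were above in KPC180, the difference was 0.020, and the log2 ratio of Tead4 in KPC490 over KPC469 turned to -0.19. These alternatives test other genes or centre the values differently; further causes were not tested. Leaving out each line gave 3 to 6 genes above in KPC180, 2 to 4 below in KPC469, 0 to 4 above and 1 to 2 below in KPC490, 2 to 6 above in KPC630 and a difference between -0.13 (without KPC180) and 0.48 (without KPC469). Ratios of all 31 genes moved by less than their counting interval with DESeq2 size factors, 30 did so with library totals alone and 11 after subtracting chromosome medians. Each line has 1 library, so line-to-line differences cannot be told apart from differences between cultures or preparations, and genes with few counts have wide intervals. No paired analysis was possible because each line is a group of 1 library.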

Other observations

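Among 17 further published targets of either route, 14 averaged at least 5 CPM, and in 6 of these the highest line exceeded the lowest at least 4-fold, against 13.9% of all genes at that level. This list too was chosen with earlier results of these data known. Thbs1 and Ptgs2 were highest in KPC469 and Igfbp3 in KPC630. Thbs1, which encodes the matrix protein thrombospondin 1, an activator of latent TGF-beta, had 633 CPM in KPC469 and 19.0 to 167 CPM in the other lines, a 33.3-fold range (29.8 to 37.3). Ptgs2, the COX-2 gene, ran from 259 CPM in KPC469 to 18.4 in KPC630. Igfbp3, which binds insulin-like growth factors, was at 201 CPM in KPC630, 197 in KPC180 and 28.1 in KPC850, the lowest line. Smad9, a BMP-responsive SMAD gene chosen after its values were seen, had 10.5 to 12.2 CPM in KPC490, KPC630 and KPC850 and 0.301 to 1.91 CPM in KPC142, KPC180 and KPC469.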
